A study of Homo sapiens with 8 samples.

Results

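Fragmented G4 domains are stretches of chromatin in which a single lower-confidence G4 interval holds at least 2 separate high-confidence G4 peaks, here called inner peaks. They were chosen by their place in the peak lists alone: an interval of the lower-confidence list, which needs support from 2 of 8 replicates for K562 and 2 of 9 for HepG2, was a member when 2 or more intervals of the high-confidence list, which needs 5 of 8 or 6 of 9, lay inside it. The rule gave 438 domains in K562 and 438 in HepG2, 876 of the 47598 lower-confidence intervals outside the mitochondrial chromosome. In K562 they were 5.03% of the 8711 intervals that held any high-confidence peak, and in HepG2 5.29% of 8280. The remaining 8273 and 7842 such intervals held exactly 1 peak and are called single-peak domains.

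G-quadruplexes (G4s) are folds of guanine-rich single strands in which guanines from separate G runs stack in planar tetrads. In chromatin they are found mostly in nucleosome-depleted promoters, near the start sites of active genes, and several transcription factors bind them. In G4 ChIP-seq, sheared chromatin is precipitated with BG4, an antibody against the folded structure, so a peak gives the surroundings of a fold and not its exact bases.

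K562 cells derive from a chronic myelogenous leukemia and HepG2 cells from a hepatocellular carcinoma, and the labels give no treatment for either. The sample labels name 3 G4 ChIP libraries and 1 input library for each line, which the series describes as technical replicates. By the study's methods, the 8 and 9 merged replicates were technical repeats within 3 independent experiments for each line, so support from 2 replicates can come from 1 experiment. An interval carries no height, depth or replicate number, so no spread between replicates could be computed. A gap between inner peaks is a stretch found in at least 2 replicates but in fewer than the high-confidence list requires, and it says nothing of how weak the signal was. Tests below compare intervals of 1 merged list, intervals are not biological replicates, and every 95% confidence interval covers the counting of intervals only.

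The sequences that carry these domains are shown first for 4 loci that were split in both lines, because there a G4 motif and a gap can be set against each other. A motif was called on either strand where 4 G runs, each of 3 bases or longer, were separated by loops of 1 to 7 bases, and motifs of a strand do not overlap. Coordinates are hg19, and the letters were read from the GRCh37 assembly. Each motif is written on its own strand, with the G runs in capitals.
CELF5 intron, chr19:3285017-3285038, minus strand: GGGGcGGGccctGGGGGcGGGG
CELF5 intron, chr19:3285088-3285112, minus strand: GGGGctaaGGGtGGGccctgaGGGG
CELF5 intron, chr19:3285301-3285319, minus strand: GGGaGGGtaaGGGGcaGGG
CELF5 intron, chr19:3285515-3285541, minus strand: GGGcGGGGGcaagactGGGatgaaGGG
CELF5 intron, chr19:3285623-3285644, minus strand: GGGGaGGGGtataGGGGttGGG
CELF5 intron, chr19:3285662-3285685, minus strand: GGGGcGGGGaaGGGGGGGtGGGGG
CELF5 intron, chr19:3285783-3285803, minus strand: GGGGaGGGtttGGGGGcGGGG
CELF5 intron, chr19:3285859-3285880, minus strand: GGGccgctGGGcGGGGaGGGGG
TEF, chr22:41777307-41777330, minus strand: GGGGctgtggcGGGGcGGGaGGGG
TEF, chr22:41777355-41777375, minus strand: GGGcGGGGGcGGGGcccGGGG
TEF, chr22:41777699-41777724, plus strand: GGGGacacaGGGGcggcGGGGcGGGG
SLC27A1, chr19:17580763-17580784, plus strand: GGGGcGGGactcGGGGagaGGG
FSTL3, chr19:680575-680595, plus strand: GGGGGcGGGGcctGGGGcGGG
FSTL3, chr19:681013-681039, plus strand: GGGtggagatGGGcGGGGatttgtGGG

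All 8 motifs of the CELF5 intron are on the minus strand, so that the C-rich strand is the one read upwards along the chromosome. The next 4 windows show what the gaps themselves hold, with the gap in capitals and up to 20 bases of the inner peaks on each side in lower case.
CELF5 intron, K562 gap, chr19:3285154-3285226, plus strand: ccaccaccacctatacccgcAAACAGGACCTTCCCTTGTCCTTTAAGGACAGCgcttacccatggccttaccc
CELF5 intron, HepG2 gap, chr19:3285649-3285710, plus strand: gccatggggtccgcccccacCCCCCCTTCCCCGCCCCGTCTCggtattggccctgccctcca
TEF, HepG2 gap, chr22:41777247-41777323, plus strand: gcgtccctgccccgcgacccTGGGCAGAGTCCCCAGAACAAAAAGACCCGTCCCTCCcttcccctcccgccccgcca
SLC27A1, K562 gap, chr19:17580776-17580830, plus strand: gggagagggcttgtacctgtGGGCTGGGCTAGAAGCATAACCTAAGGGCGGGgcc

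The HepG2 gap in the CELF5 intron is 22 bp long, has a GC content of 81.8% and cuts into the motif at chr19:3285662-3285685, which in K562 lies wholly inside an inner peak of 676 bp. The K562 gap of the same locus is 33 bp long, has a GC content of 48.5% and holds none of the 8 motifs. Short gaps thus included both motif-bearing and motif-free sequence.

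The number of inner peaks was distributed alike in the lines. Of the K562 domains 390 held 2 inner peaks, 40 held 3 and 8 held 4, and of the HepG2 domains 389, 40 and 9. This gave 932 and 934 inner peaks and 494 and 496 gaps. Fragmented domains were wide, with a median of 579.5 bp in K562 (quartiles 426.2 and 743.5, range 163 to 2243) and 497 bp in HepG2 (361.2 and 667.8, range 169 to 1662). On either side of the selection threshold, domains with 2 inner peaks had a median width of 558 bp in K562 and 491 bp in HepG2, and single-peak domains 321 and 329 bp. Width belongs to the same lists as the rule and is given without a test. Inner peaks covered a median of 56.2% of a fragmented domain in K562 and 47.0% in HepG2.

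Neighbouring inner peaks were mostly less than 100 bp apart. The median gap was 71.5 bp in K562 (quartiles 24 and 127) and 45.5 bp in HepG2 (17.8 and 97.2), and the widest were 552 and 533 bp. With only inner peaks of at least 50 bp counted, the median gap was 110 bp in K562 and 83 bp in HepG2. Gaps under 20 bp made up 20.9% of the K562 and 26.6% of the HepG2 gaps, gaps under 100 bp 63.2% and 76.4%, and 7 and 16 gaps were a single base pair. Between the centres of neighbouring inner peaks the median distance was 226.8 bp in K562 (SD 137.8, 494 pairs) and 156 bp in HepG2 (SD 132.3, 496 pairs). HepG2 thus had both the shorter gaps and the shorter distances, with the ranges of the lines overlapping almost wholly.

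**Figure D1:**
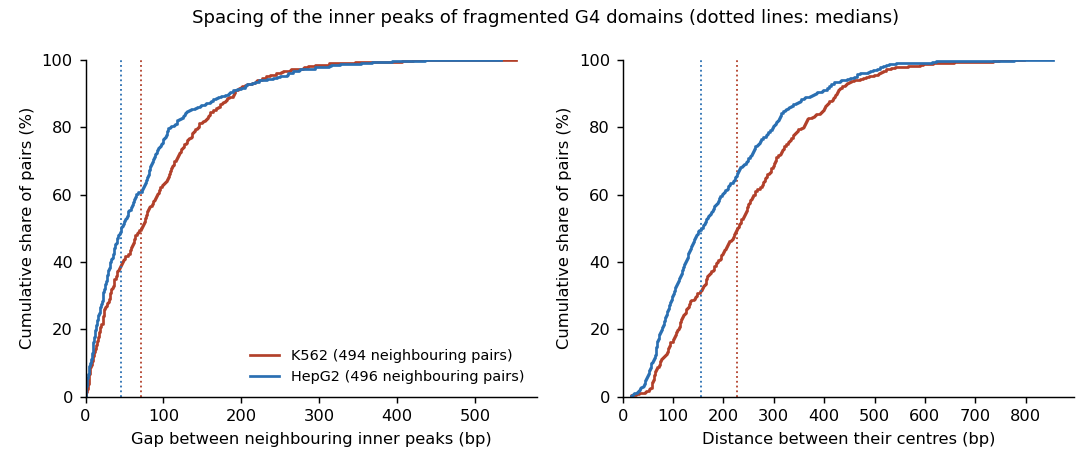
Cumulative share of neighbouring inner-peak pairs (y axis, %) against the gap between them (left, bp) and the distance between their centres (right, bp), for 494 pairs in K562 and 496 in HepG2. Dotted lines are the medians, 71.5 and 45.5 bp for gaps and 226.8 and 156 bp for centres, and the HepG2 curve lies to the left over most of its course.

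The inner peaks of a domain were unequal in width. In domains with 2 inner peaks the narrower had a median of 75 bp and the wider 212.5 bp in K562, against 45 and 151 bp in HepG2. Both were at least 100 bp wide in 154 of 390 such domains in K562 and in 89 of 389 in HepG2, while the narrower was under 50 bp in 161 and 206. Peaks under 50 bp made up 25.1% of the inner peaks in K562 and 32.7% in HepG2, and 2.94% and 5.37% of the peaks of single-peak domains. When inner peaks under 50 bp were not counted, 266 domains in K562 and 215 in HepG2 kept at least 2, and when inner peaks less than 50 bp apart were joined, 275 and 229 did.

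Most fragmented domains met a promoter, which here means the stretch of 1 kb before an annotated TSS. In K562, 385 of 438 (87.9%, 95% Wilson interval 84.5 to 90.6) overlapped one by 1 bp or more, against 82.1% of all K562 domains with a peak and 81.8% of the single-peak domains (odds ratio 1.62, 1.21 to 2.16, Fisher's exact test, two-sided, adjusted p = 0.00189 over 11 contrasts). In HepG2, 323 of 438 did (73.7%, 69.4 to 77.7), against 70.8% of all and 70.6% of the single-peak domains (odds ratio 1.17, 0.938 to 1.45, Fisher's exact adjusted p = 0.195). Within classes of 100 bp of domain width the Mantel-Haenszel odds ratio was 1.03 in K562 (0.752 to 1.41, n = 8711 domains, adjusted p = 0.916) and 0.801 in HepG2 (0.635 to 1.01, n = 8280 domains, adjusted p = 0.11). The K562 difference therefore did not pass the test among domains of like width.

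Inner peaks lay mostly near a coding TSS and more often before it than after it. Of the K562 inner-peak centres 746 of 932 (80.0%) lay within 1 kb of a protein-coding TSS, and of the HepG2 centres 623 of 934 (66.7%). The shares were near those of the peaks of single-peak domains, 76.4% in K562 and 65.5% in HepG2. In 190 K562 and 137 HepG2 domains the inner peaks lay on both sides of the nearest coding TSS. All were upstream in 126 and 123 domains, all downstream in 34 and 33, and 88 and 145 domains had no coding TSS within 1 kb. Of the centres within 1 kb, 68.1% of inner peaks and 82.3% of single peaks were upstream in K562, and 67.7% and 82.0% in HepG2, given without a test because the centres of 1 domain are tied to each other.

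Gap centres were spread more evenly over the sides of the TSS than inner-peak centres, and fewer of them were right at it. Of all gap centres 19.0% in K562 and 15.9% in HepG2 lay within 50 bp of a coding TSS, against 27.0% and 19.3% of the inner-peak centres. The median gap centre was 17 bp upstream in K562 (coded as -17) and 35 bp upstream in HepG2 (-35), against -40.5 and -55 for inner peaks and -59 and -71 for single peaks. In K562, 8.91% of all gap centres fell 50 to 100 bp downstream of a coding TSS and 8.30% 100 to 150 bp downstream, and in HepG2 7.26% fell 50 to 100 bp downstream.

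**Figure D2:**
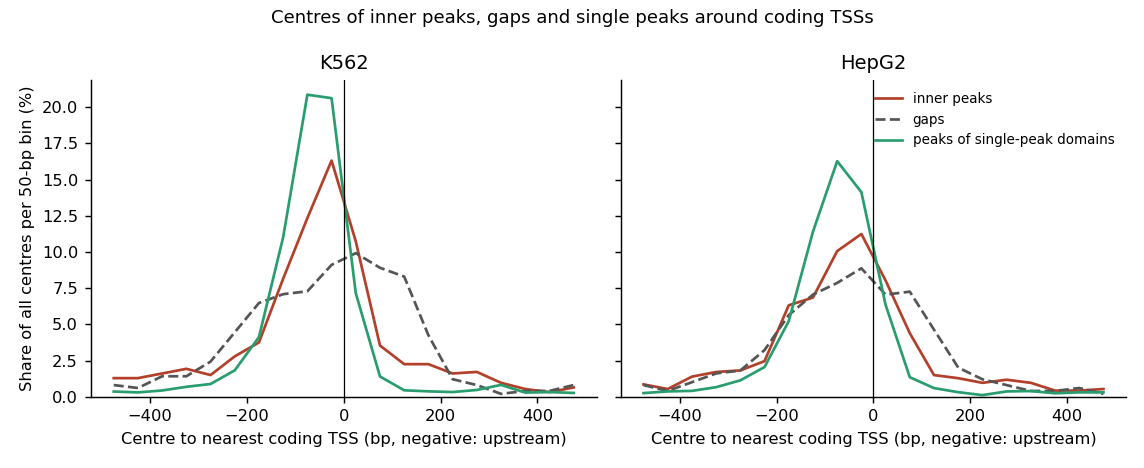
Share of all centres (y axis, % per 50-bp bin) by their distance to the nearest protein-coding TSS (x axis, bp, negative upstream) for inner peaks, gaps and the peaks of single-peak domains in K562 (left) and HepG2 (right). Single peaks gather just upstream, with 20.9% of K562 centres 50 to 100 bp before the TSS, whereas gaps spread to both sides.

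Some promoters start transcription in both directions. Coding TSSs of both strands lay inside 42 of 438 fragmented domains in K562 (9.59%, 7.17 to 12.7), against 6.88% of all domains with a peak and 6.73% of the single-peak domains (odds ratio 1.47, 1.06 to 2.04, Fisher's exact adjusted p = 0.0402). In HepG2 they lay in 36 (8.22%, 6.00 to 11.2), against 6.98% of all and 6.91% of the single-peak domains (odds ratio 1.21, 0.848 to 1.72, Fisher's exact adjusted p = 0.289). Within width classes the odds ratios were 1.02 in K562 (0.698 to 1.49, n = 8711 domains, adjusted p = 0.916) and 0.758 in HepG2 (0.517 to 1.11, n = 8280 domains, adjusted p = 0.246), and neither passed the test.

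G4 motifs were unevenly shared out between the inner peaks. At least 1 inner peak held a complete motif in 202 of 438 K562 domains (46.1%, 41.5 to 50.8), against 34.0% of all domains with a peak and 33.4% of the single-peak domains (odds ratio 1.71, 1.41 to 2.07, Fisher's exact adjusted p = 4.68e-07). In HepG2 116 of 438 did (26.5%, 22.6 to 30.8), against 21.7% of all and 21.4% of the single-peak domains (odds ratio 1.32, 1.06 to 1.65, Fisher's exact adjusted p = 0.0264). Within classes of domain width the direction turned, with odds ratios of 0.674 in K562 (0.537 to 0.847, n = 8711 domains, adjusted p = 0.00137) and 0.622 in HepG2 (0.486 to 0.796, n = 8280 domains, adjusted p = 0.000578). Between domains of like width, those cut into several peaks held a complete motif inside a high-confidence peak less often. Gaps lie outside such peaks by the rule, so motifs in gaps were not counted. With motifs counted anywhere in the domain and without width classes, the odds ratios were 2.53 in K562 (2.06 to 3.10) and 1.64 in HepG2 (1.35 to 1.99).

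Counted per peak, 237 of 932 K562 inner peaks (25.4%, 22.7 to 28.3) and 134 of 934 HepG2 inner peaks (14.3%, 12.2 to 16.7) held a motif. Peaks of single-peak domains held one in 33.4% and 21.4% of cases (odds ratios 0.680 and 0.615, Fisher's exact adjusted p = 1.71e-06 and 7.79e-07). In classes of 50 bp of peak width the Mantel-Haenszel odds ratios were 1.11 (0.933 to 1.33) and 1.14 (0.923 to 1.41), and both had an adjusted p of 0.288. Inner peaks of 1 domain share their region but were counted as separate, so these p-values and intervals may overstate the certainty. The share of inner peaks with a motif differed with their width. In K562 it was 1.71% below 50 bp, 9.22% from 50 to under 100 bp, 25.7% from 100 to under 200 bp and 52.1% from 200 bp upwards, and in HepG2 1.64%, 9.95%, 16.5% and 36.6%.

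A motif in every inner peak was the exception. No inner peak held a motif in 236 K562 domains, 1 did in 168, 2 in 33 and 3 in 1, and in HepG2 the counts were 322, 99, 16 and 1. Where at least 2 inner peaks held motifs, all were on the same strand in 21 K562 and 12 HepG2 domains, and both strands were used in 13 and 5. The only motifs of a domain lay outside its inner peaks in 94 K562 and 87 HepG2 domains, and a motif reached into a gap in 106 and 74.

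The gaps were not poor in G4-type sequence. In K562 the pooled GC content was 70.7% in inner peaks, 69.7% in gaps and 68.6% in the ends of the domains outside the outermost inner peaks. In HepG2 it was 66.0%, 65.8% and 63.9%. Inner peaks had the higher GC content in 219 of 438 K562 domains and gaps in 219 (two-sided exact sign test, p = 1), and in HepG2 inner peaks were higher in 212 domains and gaps in 225, with 1 tie (exact p = 0.566). Motif centres occurred 2.76 times per kb in inner peaks, 2.69 in gaps and 1.87 in ends in K562, and 1.88, 2.27 and 1.36 times in HepG2. With only gaps of at least 20 bp, inner peaks were higher in GC in 53.9% of K562 domains (exact p = 0.152), and with only gaps of at least 50 bp in 56.7% (exact p = 0.0298). In HepG2 these shares were 48.2% (exact p = 0.547) and 45.6% (exact p = 0.208).

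**Figure D3:**
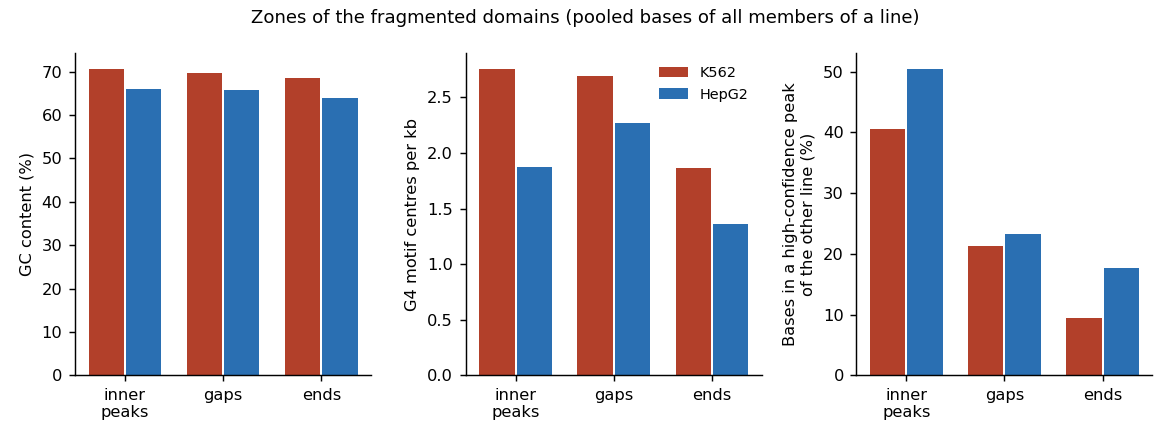
GC content (left, %), G4 motif centres per kb (middle) and bases inside the other line's high-confidence peaks (right, %) for inner peaks, gaps and ends, pooled over 438 fragmented domains in each line. GC content is near level between inner peaks and gaps (70.7% and 69.7% in K562, 66.0% and 65.8% in HepG2), while the other line's peaks cover 40.6% and 50.5% of inner-peak bases but 21.4% and 23.2% of gap bases.

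Peaks of the other cell line covered more of the inner peaks than of the gaps. HepG2 high-confidence peaks covered 40.6% of the bases in K562 inner peaks, 21.4% of those in K562 gaps and 9.46% of those in the ends. K562 peaks covered 50.5%, 23.2% and 17.6% of the bases in HepG2 inner peaks, gaps and ends. Among the K562 domains met by a HepG2 peak, coverage was higher in the inner peaks than in the gaps in 157, lower in 68 and equal in 23. Among the HepG2 domains it was higher in 139, lower in 67 and equal in 53. These are shares of bases in tied stretches and were not tested.

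As whole intervals, fragmented domains differed from single-peak domains in overlap with the other line only under some settings. Over all domains, the difference passed the test in neither line. In K562, 248 of 438 met at least 1 HepG2 peak (56.6%, 51.9 to 61.2), against 52.9% of all domains with a peak and 52.7% of the single-peak domains (odds ratio 1.17, 0.966 to 1.42, Fisher's exact adjusted p = 0.142). In HepG2 259 did (59.1%, 54.5 to 63.6), against 55.5% of all and 55.3% of the single-peak domains (odds ratio 1.17, 0.963 to 1.42, Fisher's exact adjusted p = 0.142). Within width classes the odds ratios were 0.549 in K562 (0.438 to 0.687, n = 8711 domains, adjusted p = 6.19e-07) and 0.683 in HepG2 (0.552 to 0.845, n = 8280 domains, adjusted p = 0.00112), below 1 in both lines. With inner peaks under 50 bp left out they were 1.57 (Fisher's exact adjusted p = 0.001) and 2.15 (adjusted p = 1.08e-06) without width classes. The direction of this contrast thus turned with width classes, and without them it stayed above 1 when narrow peaks were left out.

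The partner in the other line was usually whole. Of the K562 domains 195 met a HepG2 domain with 1 inner peak, 53 met a HepG2 domain that was split as well, 108 met a HepG2 interval without a high-confidence peak and 82 met none. For the HepG2 domains the counts were 206, 53, 52 and 127. Where the other line's high-confidence peaks touched any inner peak, exactly 1 was touched in 121 of 245 K562 domains, and it was the widest in 110 of those 121. In HepG2 this held for 87 of 256 domains, with the widest touched in 75. All inner peaks were touched in 118 and 160 domains, and in 80 K562 and 113 HepG2 domains a single peak of the other line ran across a gap.

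A split in K562 went more often with a split in HepG2, although most partners of fragmented domains were whole. Among K562 domains that met a HepG2 domain with a peak, 53 of 248 fragmented domains were also split in HepG2 (21.4%, 16.7 to 26.9), against 235 of 4381 single-peak domains (5.36%, 4.74 to 6.07). The odds ratio was 4.80 (3.44 to 6.68, Fisher's exact adjusted p = 1.72e-15). Within classes of K562 domain width it was 3.16 (2.08 to 4.80, n = 4629 domains, adjusted p = 5.96e-07), and HepG2 domain width was not classed. Both sides of this contrast are counts of inner peaks, which the rule also used, so it describes the lists and no cause was tested. The odds ratio stayed above 1 and past the threshold in all 7 alternatives, with values from 3.16 to 11.4.

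**Figure D4:**
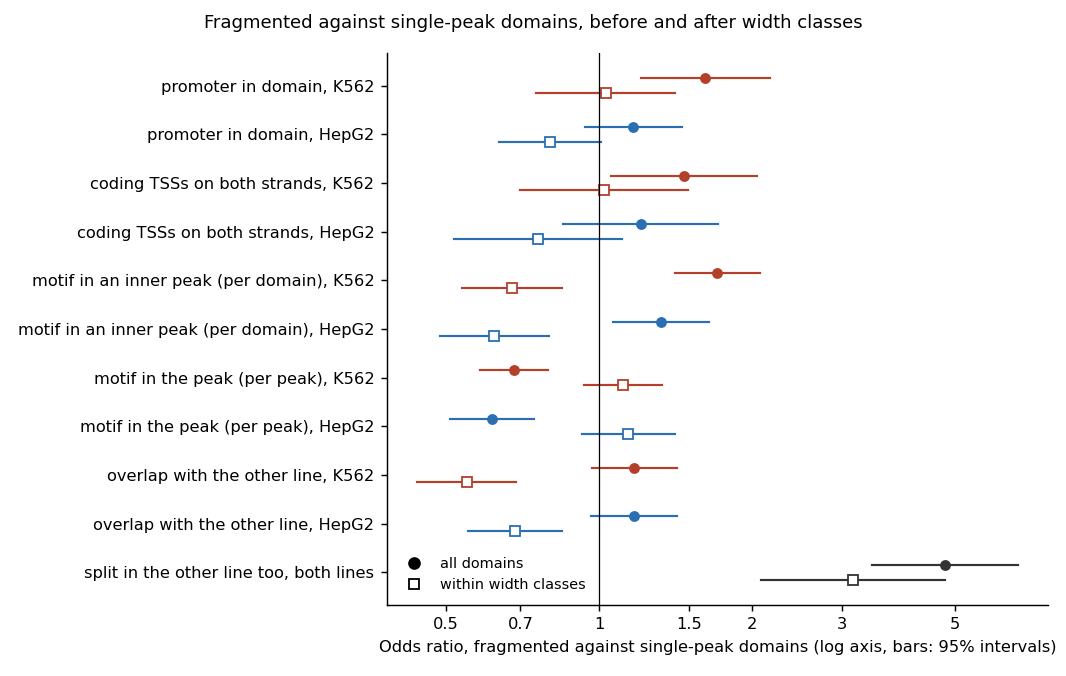
Odds ratios (x axis, log scale, bars are 95% intervals) of fragmented against single-peak domains for each contrast and line, over all domains (filled circles) and within width classes (open squares). For splitting in both lines the classes are of K562 domain width only. Both sides of that contrast are counts of inner peaks, which the rule also used, so it describes the lists. Only splitting in both lines stays on the same side of 1 with an interval that does not reach it, at 4.80 and 3.16, while motif content per domain crosses from above to below 1 in both lines.

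The gaps of these 53 pairs often overlapped. Some overlap is built in, because both gaps lie inside overlapping domains, and no expected share was computed. Of their 62 K562 gaps 41 (66.1%) shared at least 1 bp with a HepG2 gap, and 39 of the 53 pairs had such a gap. The nearest gap centres were a median of 35.5 bp apart (quartiles 12 and 85), within 20 bp in 17 pairs and within 50 bp in 37. HepG2 gaps held 42.4% of the K562 gap bases and 9.11% of the K562 inner-peak bases, and HepG2 inner peaks held 37.2% and 67.4%. A promoter was met by 48 of the 53 pairs, beside 385 of all 438 fragmented K562 domains. A motif lay anywhere in the domain, inner peaks or not, in 40 of the paired K562 domains. Of all 438, 202 held a motif in an inner peak and a further 94 only outside the inner peaks. Neither share was tested.

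TSEN34, a subunit of the endonuclease that splices transfer RNAs, shares its promoter region with MBOAT7, an acyltransferase of phosphatidylinositol. Their domain was the widest of both lines, 2243 bp at chr19:54693023-54695265 in K562 and 1662 bp in HepG2. Its 4 K562 inner peaks were 10, 758, 398 and 265 bp wide with gaps of 44, 219 and 179 bp, and its 2 HepG2 inner peaks were 842 and 388 bp wide with a gap of 240 bp. The K562 gap of 219 bp and the HepG2 gap had centres 19.5 bp apart, and both lay in annotated exons. The K562 domain held 4 motifs, none of them inside an inner peak.

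The CELF5 intron, whose nearest coding TSS is that of NFIC, a nuclear factor I transcription factor, held the most motifs in inner peaks of either line, 8 in K562 and 6 in HepG2. CELF5 encodes an RNA-binding protein. The K562 domain was 1099 bp wide at chr19:3284887-3285985, with inner peaks of 256 and 676 bp, and the HepG2 domain 1029 bp, with inner peaks of 164, 393 and 154 bp and gaps of 127 and 22 bp. It was one of the few domains split in both lines that met no promoter. The nearest gap centres were 22 bp apart.

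At TEF, which encodes a basic leucine zipper transcription factor, the motifs and the inner peaks parted between the lines. The 3 motifs printed above lay inside the HepG2 inner peaks of 304 and 274 bp. In K562 the inner peaks were 180 and 155 bp wide, none of the motifs lay whole in either, and the plus-strand motif fell in the K562 gap of 196 bp. That gap and the second HepG2 gap of 49 bp had centres 5.5 bp apart. SLC27A1, a fatty acid transporter, showed the opposite: its printed motif lay in the K562 inner peak of 266 bp and in the HepG2 gap of 312 bp. That gap overlapped both K562 gaps, of 32 and 139 bp, and the nearest centres were 3 bp apart.

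FSTL3, an extracellular inhibitor of activin, was cut once in K562 and more finely in HepG2. The K562 inner peaks were 480 and 212 bp wide with a gap of 126 bp, and the HepG2 inner peaks 401, 56, 58 and 75 bp with gaps of 4, 43 and 22 bp. Both printed motifs lay inside inner peaks in both lines. CENPN, a centromere protein, with CMC2 on the other strand, showed the reverse, with 4 inner peaks in K562 (128, 14, 107 and 195 bp) and 2 in HepG2 (316 and 180 bp), none with a motif.

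Of the further domains named among those split in both lines, 4 met a promoter, and ties in the number of inner peaks were cut by width. Between DEAF1, a transcription factor, and TMEM80 the K562 gap of 121 bp and the HepG2 gap of 106 bp had centres 20.5 bp apart, and a HepG2 inner peak there was 1 bp wide. At ATXN2L, a stress granule protein, an inner peak of 413 bp in K562 and 436 bp in HepG2 held the single motif, and the further inner peaks were 22 and 15 bp in K562 and 4 bp in HepG2. At BRD2, a bromodomain reader of acetylated histones, the gaps of the lines did not overlap and their nearest centres were 162.5 bp apart. At FKBP2, a prolyl isomerase of the endoplasmic reticulum, they were 574.5 bp apart and did not overlap either.

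**Figure D5:**
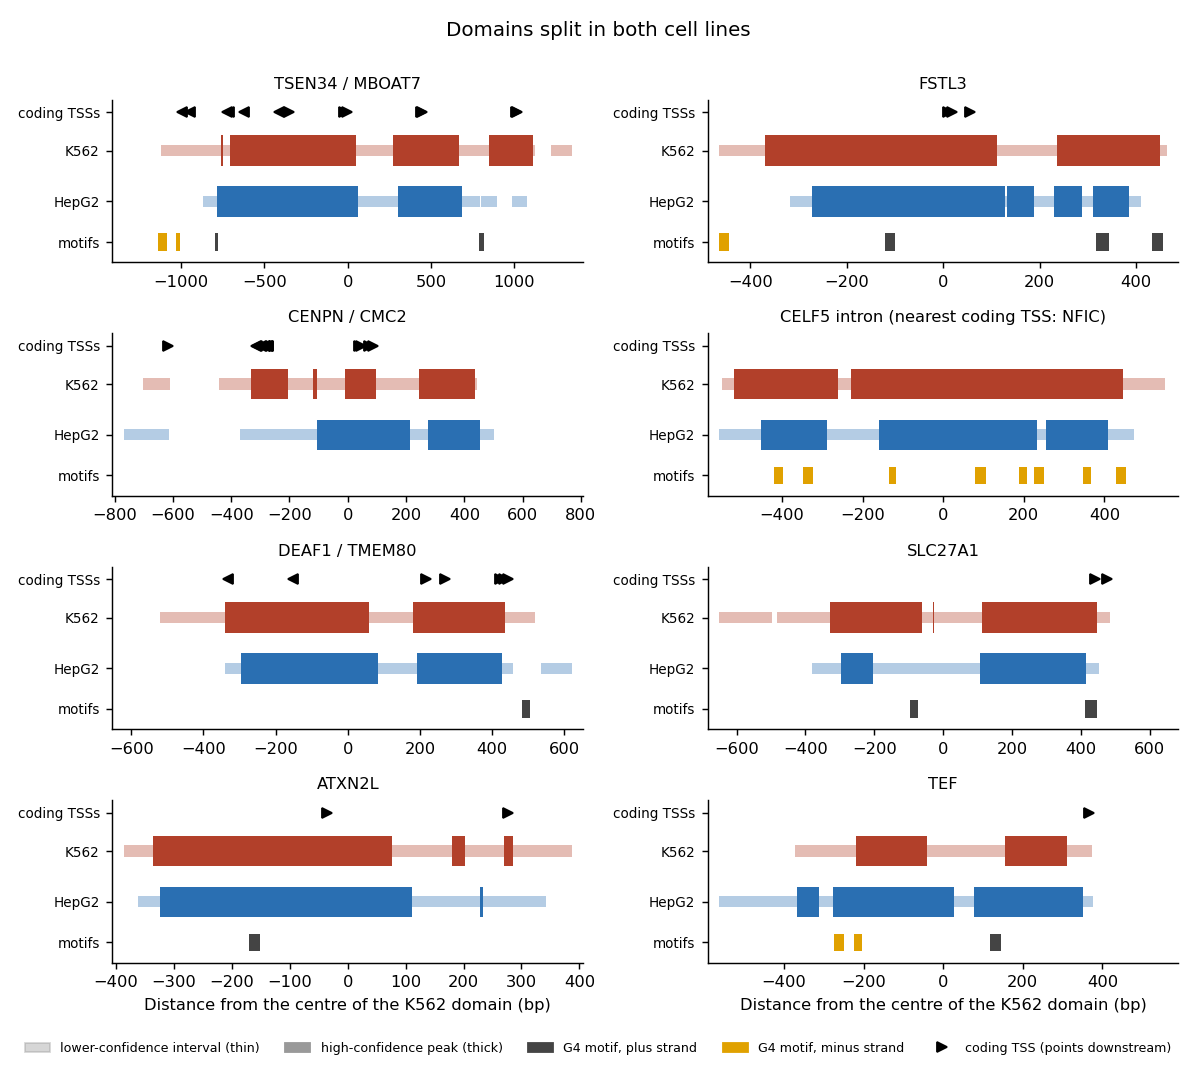
Maps of 8 domains split in both lines (x axis, bp from the centre of the K562 domain). Lower-confidence intervals are thin bars, high-confidence peaks are thick bars, and G4 motifs are drawn by strand and coding TSSs as arrowheads. The 8 are a selection from the domains named in the text, made without a stated rule, and do not stand for all pairs. At BRD2 and FKBP2 the gaps of the lines do not overlap, with nearest centres 162.5 and 574.5 bp apart. Of the 53 pairs, 39 have a K562 gap that overlaps a HepG2 gap. Gaps of the lines lie above each other at TSEN34, DEAF1 and TEF, with centres 19.5, 20.5 and 5.5 bp apart, and at the CELF5 intron and FSTL3 the K562 gap overlaps a HepG2 gap while a further HepG2 gap lies inside a K562 peak.

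Domains with 4 inner peaks in 1 line, whose partner in the other line held 1 peak or none, often included very narrow peaks. In K562, B3GALNT2, a glycosyltransferase of dystroglycan, had inner peaks of 509, 5, 11 and 62 bp, and MGAT1, which opens the path to complex N-glycans, had 55, 39, 95 and 211 bp. A domain of 968 bp in an intron of the non-coding gene CROCCP2 on chromosome 1 had inner peaks of 60, 74, 71 and 388 bp. In HepG2, ADRM1, a ubiquitin receptor of the proteasome, had 245, 13, 40 and 282 bp, GSK3A, a glycogen synthase kinase, had 266, 28, 10 and 261 bp, and UNK, an RNA-binding zinc finger protein, had 65, 227, 4 and 177 bp. HS6ST1, a heparan sulfate sulfotransferase, held them in an intron with widths of 167, 87, 1 and 23 bp.

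Further named domains lay far from a coding TSS, had a wide gap or resembled repeated sequence. The widest HepG2 domain with 4 inner peaks, in an intron of TTC34 and nearest to the TSS of MMEL1, was 1242 bp wide with inner peaks of 182, 211, 219 and 112 bp, no motif and no K562 interval. Its gaps of 77 and 83 bp held recurring near copies of the same short stretch, and whether this affected its peaks was not tested. The widest HepG2 gap, 533 bp, lay at CX3CL1, the chemokine fractalkine, between inner peaks of 185 and 301 bp that met no K562 interval. The widest K562 gap, 552 bp, lay in a domain at chr21:9825462-9827037 with inner peaks of 165, 203, 110 and 100 bp, 4 motifs in them and a GC content of 90.9% in one of them. That domain overlaps MIR3648 and MIR3687 and resembles ribosomal RNA repeats, of which the genome holds many copies, so its reads may come from elsewhere and its values are uncertain.

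By gene, 427 of the 7015 protein-coding genes with a peak-bearing domain at a promoter had a fragmented one in K562 (6.09%), and 360 of 6016 in HepG2 (5.98%). In both lines it was 61 genes, 14.3% of the K562 and 16.9% of the HepG2 genes. Of the lists of gene families, chromatin regulators had 7 fragmented of 50 in K562 (14%) and 5 of 39 in HepG2 (12.8%), RAB GTPases, which steer vesicle traffic, 4 of 38 (10.5%) and 5 of 33 (15.2%), and KLF and SP zinc finger factors 3 of 13 (23.1%) and 1 of 11 (9.09%). These counts are small, and the lists were not tested.

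The other lists gave the following counts. Zinc finger genes of the ZNF family had 13 of 193 in K562 (6.74%) and 17 of 191 in HepG2 (8.90%), mitochondrial ribosomal proteins 2 of 38 (5.26%) and 4 of 35 (11.4%), cytosolic ribosomal proteins 1 of 40 and 2 of 46, and cyclins and their kinases 1 of 23 and 1 of 18. Immediate early genes had 0 of 15 and 1 of 11, the latter EGR1, a zinc finger factor induced by growth signals. Small nucleolar RNA host genes had 1 of 17 and 0 of 15. HOX genes had 0 of 1 in K562 and no domain with a peak in HepG2, and replication-dependent histone genes 0 of 2 in each line.

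The listed genes that were split in both lines show how the cut can move. BRD3, another bromodomain reader, had inner peaks of 245 and 136 bp with a gap of 281 bp in K562, and of 23 and 48 bp with a gap of 35 bp in HepG2. SP3, a transcription factor of GC boxes, had 138 and 327 bp with a gap of 62 bp in K562 and 41 and 77 bp with a gap of 38 bp in HepG2. ZNF131 had gaps of 99 and 92 bp in K562 and HepG2, and ZNF771 of 3 and 76 bp. At RAB40C the fragmented domains of the lines lay at different places of the promoter, with gaps of 26 bp in K562 and 45 bp in HepG2. At EGR1 the HepG2 domain of 925 bp had inner peaks of 79 and 192 bp with a gap of 77 bp, while the K562 domain of 866 bp held a single peak of 519 bp.

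The contrasts were set against each other between the lines. None of the 5 odds ratios differed between K562 and HepG2 by a normal approximation on the log scale, with adjusted p from 0.218 to 0.99 over all domains and from 0.464 to 0.864 within width classes. The ratio of the K562 to the HepG2 odds ratio was 1.38 for promoters (0.961 to 1.99) and 1.29 for motifs per domain (0.964 to 1.73), and these intervals reach well above 1.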

How the data were processed

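G4 ChIP-seq of K562 and HepG2 cells was deposited as 4 merged interval lists (3 G4 ChIP libraries and 1 input per line in the labels). The authors used cutadapt for trimming, BWA for alignment to hg19, Picard and samtools for duplicate removal, MACS2 for peaks of each replicate and bedtools multiinter for merging. The deposited values are positions in bp, without counts or heights, so depth is unknown. Input libraries have no list of their own and were not analysed here.

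Inner peaks were intervals lying wholly inside a lower-confidence interval. Mitochondrial intervals were left out (18 and 20 lower-confidence, 0 and 29 high-confidence in K562 and HepG2). Annotation was GENCODE version 44 lifted to GRCh37. Shares were compared by odds ratio with Woolf 95% interval and two-sided Fisher's exact test, adjusted by Benjamini-Hochberg over 11 contrasts, and by Mantel-Haenszel odds ratio in width classes of 100 bp (peaks: 50 bp). Shares have Wilson intervals. Domains were called by the nearest protein-coding TSS to their centre. Named in the text are, per line, the 6 with most inner peaks, the widest domain, the widest gap and the most motifs in inner peaks, the 10 with most inner peaks among those split in both lines, and up to 4 genes per list in alphabetical order. The members and lists were chosen with earlier results of these data known. Alternatives were width minimums, joined peaks, and other promoter, motif and overlap definitions. Functions were tested on simulated data. Python 3.11.15, numpy 2.4.6, scipy 1.17.1, pysam 0.24.0, matplotlib 3.10.9 and samtools 1.23.1 were used.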

Additional observations from a re-analysis of the deposited data

How the results depend on the processing

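Of 123 recomputed values for 19 results, 93 came with a test, and 54 of those stayed on their side of the threshold without a turn of direction, among them splitting in both lines under all of its 7 alternatives. Of the remaining tested values 12 turned direction, 18 came to pass the threshold and 9 no longer passed it. The untested values were counts or medians, and the median gap moved to 110 bp in K562 and 83 bp in HepG2 with inner peaks of at least 50 bp. The cause of the other changes was not tested, apart from the fewer members that a stricter definition leaves.

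Fragmented domains numbered 266 in K562 and 215 in HepG2 with inner peaks of at least 50 bp, 177 and 110 with at least 100 bp, 275 and 229 with inner peaks less than 50 bp apart joined, and 177 and 115 with those less than 100 bp apart joined. They then held 545 and 447, 360 and 224, 567 and 469, and 359 and 232 inner peaks.

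Within width classes the odds ratios were, in K562 and HepG2, 1.03 and 0.801 for promoters, 1.02 and 0.758 for coding TSSs on both strands, 0.674 and 0.622 for motifs per domain, 1.11 and 1.14 for motifs per peak, and 0.549 and 0.683 for overlap with the other line. All settings that follow were computed without width classes. With inner peaks of at least 50 bp the odds ratios were 0.896 and 1.04 for motifs per peak and 1.57 and 2.15 for overlap. With at least 100 bp they were 1.11 and 1.08, and 1.77 and 3.57. For promoters in HepG2 these settings gave 1.61 and 1.84. Joining peaks less than 20 bp apart gave 1.39 and 1.35 for overlap. Joining below 50 bp gave 1.56 and 1.51 for overlap, 0.854 for motifs per peak in K562 and 1.57 for promoters in HepG2. Joining below 100 bp gave 1.48 and 2.20 for overlap, 0.895 and 0.843 for motifs per peak, and in HepG2 1.86 for promoters and 2.02 for coding TSSs on both strands.

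With coding TSSs within 1 kb the K562 odds ratio for both strands was 1.32, and with a TSS inside the domain the HepG2 promoter odds ratio was 1.25. Motif loops of up to 12 bases gave 1.16 and G runs of 2 gave 1.26 for motifs per domain in HepG2. In K562 the overlap odds ratio was 0.810 when at least 50% of the domain had to be covered and 1.32 with lower-confidence intervals of HepG2. Inner peaks were higher in GC in 56.7% of K562 domains with gaps of at least 50 bp.

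No paired analysis was possible because the deposited lists merge the replicates of a line, and leaving out replicates was not possible for the same reason. Peak heights and depth are unknown, and different replicate numbers and thresholds stand behind the lists of the lines.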

Other observations

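The share of domains with several peaks varied between chromosomes, and the following were picked after their values were seen and not tested. On chromosome 15, 22 of 226 HepG2 domains with a peak were fragmented (9.74%), against 6 of 249 in K562 (2.41%). The HepG2 members there lay at, among others, CHD2, a chromatin remodeler, SMAD6, an inhibitor of BMP signalling, and TLE3, a corepressor with 2 such domains. On chromosome 21, 11 of 101 K562 domains were fragmented (10.9%), against 4 of 84 in HepG2 (4.76%). The K562 members included promoters of RUNX1 and ETS2, both transcription factors, and of IFNAR1, a subunit of the interferon receptor. VPS26C, also among them, was split in both lines. They also include the domain above that resembles ribosomal RNA repeats, whose values are uncertain.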
